A study of Bos taurus with 12 samples.

Results

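The genes described here are 10 members of the insulin-like growth factor (IGF) and insulin signalling route to PI3K and AKT, out of 18436 genes in the expression table. They were picked by gene name and comprise the ligands IGF1 and IGF2, the receptors IGF1R, IGF2R and INSR, the adaptors IRS1 and IRS2, the lipid kinase subunit PIK3CA and the kinases AKT1 and AKT2. All 10 names were found once each in the table and all 10 had a mean of at least 0.5 FPKM, the minimum for testing. Their m6A peaks were 18 of 19739 peaks in myoblasts and 17 of 20790 in myotubes. The study asked how N6-methyladenosine (m6A), a methyl mark on adenosines of mRNA, and mRNA levels differ before and after differentiation of bovine skeletal myoblasts. Myoblasts came from the longissimus dorsi muscle of newborn Qinchuan cattle (Bos taurus), and the methods describe a single newborn animal. The GM group holds myoblasts at 80% confluence in DMEM/F12 with 20% fetal bovine serum. The DM group holds myotubes kept for 4 days in DMEM/F12 with 2% horse serum, at 100% confluence. Both media contained penicillin and streptomycin, and neither group carried a genetic change. Each group had 3 input libraries of fragmented poly(A) RNA and 3 libraries immunoprecipitated (IP) with an m6A antibody, 12 in all. Since all cells trace to the same source, p-values measure the spread between these cultures, which may be technical. Serum type, serum share, confluence and time changed together between GM and DM and cannot be told apart.

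IGF1 and IGF2 are secreted growth factors that bind the receptor tyrosine kinase IGF1R, while insulin binds INSR. The active receptors phosphorylate IRS1 and IRS2, which recruit the PI3K enzyme to the membrane, and the lipid it makes leads to activation of AKT. In skeletal muscle this route is known for supporting myoblast growth, differentiation, glucose uptake and protein synthesis, and IGF2R binds IGF2 mainly to carry it to lysosomes.

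Marker genes were read first to see what the libraries held. PAX7, MYF5 and MYOD1, 3 of 4 myoblast markers, were lower in DM, and 5 of 7 myotube markers were higher, among them MYH3 (from 273 to 659 FPKM) and CKM (from 10.2 to 42.5 FPKM), each with a limma adjusted p under 0.05. The summed level of the myotube list ran from 611 to 672 FPKM in GM and from 1063 to 1108 in DM. The GM libraries already held MYOG at 190 to 207 FPKM, and ACTA1, a myotube marker, was lower in DM. All 7 fibroblast markers were detected, with a sum of 10284 to 10431 FPKM in GM and 11634 to 12199 in DM, and 3 of them (DCN, COL3A1 and PDGFRA) rose while TCF21 fell. Summed adipocyte markers stayed at or under 2.75 FPKM, endothelial markers at or under 0.653 and immune markers at or under 2.01 in every library, and each of the 4 endothelial genes in the table was under 0.5 FPKM throughout. In such bulk RNA, fewer cells of a type and less RNA per cell cannot be told apart. The part of the fibroblast and myotube markers in the values of the 10 genes was not tested. FPKM summed over genes to between 415740.2 and 434458.3 in the GM inputs and between 386436.5 and 390826.9 in the DM inputs. The table gives no read counts, so precision rests on the spread over libraries.

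The mRNA of IGF1 and IRS2 increased from GM to DM and that of IRS1 and IGF2 decreased, while the receptors IGF1R and IGF2R did not pass the test on FPKM. On TPM, which rescales FPKM to the same total in each library, both passed, with differences of 0.20 each. With median-of-ratios size factors neither passed (0.13 each, limma adjusted p of 0.17 for IGF1R and 0.077 for IGF2R). IGF1 was 8.67-fold and IRS2 2.56-fold higher in DM as a ratio of mean FPKM (FPKM, mapped fragments scaled to the length of the gene's exons and to the total of the library). Fold changes below are differences of log2(FPKM + 1), DM minus GM. They understate the change of genes at low FPKM, most of all near or under 1 FPKM. Each was tested with limma with Benjamini-Hochberg adjustment over 12302 genes. Both criteria of the study, an unadjusted p under 0.05 and a fold over 1.5, were met by 2 of the 10 genes, IGF1 and IRS2, both higher in DM, where 4.90% of all tested genes met them. None of the 10 met them in the lower direction, where 6.97% of all tested genes did, and 11.9% did in either direction. IRS1 met them in the lower direction when 0.1 in place of 1 was added to FPKM (-0.69). At an adjusted p under 0.05, 4 of the 10 genes rose and 3 fell, beside 16.1% and 26.7% of all tested genes. Groups did not overlap for 7 of the 10 genes and for 54.1% of all tested genes. The median difference was 0.07 for the 10 genes and -0.05 for all tested genes.

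**Figure D1:**
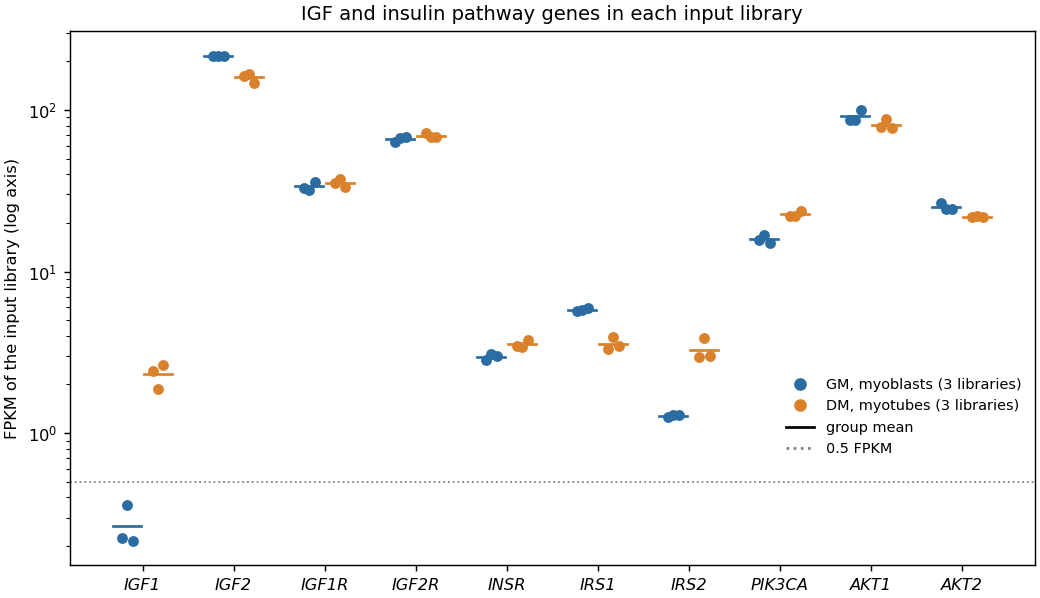
FPKM of each of the 10 genes in the 3 GM (blue) and 3 DM (orange) input libraries, on a log axis, with short lines at the group means and a dotted line at 0.5 FPKM. IGF1 lies under 0.5 FPKM in every GM library and between 1.87 and 2.63 in DM, and IRS1 and IRS2 move towards each other.

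The ligands stood at opposite ends of the range of levels. IGF1 measured 0.224, 0.358 and 0.216 FPKM in the 3 GM libraries and 2.42, 1.87 and 2.63 in the 3 DM libraries. Every DM library was above every GM library, and the GM values were all under the 0.5 FPKM line used for the filter, so IGF1 was tested only because of its DM level. The difference in IGF1 was 1.38 on the log2 scale (SE 0.107, 95% confidence interval 1.13 to 1.63), with a limma adjusted p of 2.7e-05, or 0.00023 when no filter on low values was used. IGF2, an imprinted fetal growth factor gene, measured 216, 217 and 215 FPKM in GM and 163, 167 and 146 in DM. No DM value reached the GM range, and the SD was 1.29 FPKM in GM and 11.2 in DM around means of 216 and 159. IGF2 fell by 0.44 on the log2 scale (SE 0.059, 95% interval -0.58 to -0.31) with a limma adjusted p of 0.00056, short of the 1.5-fold criterion. IGF2 remained the dominant ligand transcript, with 99.8 to 99.9% of the summed FPKM of both ligands in GM and 98.2 to 98.9% in DM. The ratio of IGF2 to IGF1 was 961, 607 and 993 in GM and 67.4, 89.6 and 55.5 in DM, a 12-fold lower ratio in DM. The groups did not overlap, and the exact permutation test (two-sided) gave p = 0.10, the smallest that 3 against 3 allows (adjusted over the 5 ratios compared, 0.17). IGF1 lies on chromosome 5 (ARS-UCD1.2, 66191602 to 66264083, minus strand) and IGF2 on chromosome 29 (49394907 to 49422468, plus strand).

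Among the receptors, the differences were small. IGF1R, the tyrosine kinase receptor for both IGFs (chromosome 21, 7780293 to 8080394), measured 32.7, 32.1 and 36 FPKM in GM and 35.1, 37.5 and 33.5 in DM. These ranges overlapped, and the 95% interval of the difference, -0.08 to 0.22, left room for neither a 1.5-fold rise nor a 1.5-fold fall (limma adjusted p = 0.41). IGF2R, the receptor that clears IGF2 (chromosome 9, 96197493 to 96300017), measured 62.9, 66.6 and 68.2 FPKM in GM and 71.6, 68.4 and 67.7 in DM. The groups overlapped again, and the interval was -0.05 to 0.19 (limma adjusted p = 0.31). Beside the lower IGF2, the ratio of IGF2R to IGF2 was 0.292, 0.307 and 0.318 in GM and 0.439, 0.409 and 0.463 in DM. This ratio was 1.43-fold higher in DM without overlap (exact permutation p = 0.10, adjusted 0.17). INSR, the insulin receptor (chromosome 7, 16058828 to 16183062), was the scarcest receptor at 2.82, 3.1 and 2.99 FPKM in GM and 3.48, 3.41 and 3.78 in DM. All DM values were above all GM values, with a difference of 0.20 (95% interval 0.04 to 0.35) and a limma adjusted p of 0.045. The INSR call did not hold without any 1 of the 6 libraries, with adjusted p-values from 0.059 to 0.14. IGF1R exceeded INSR 10.4- to 12-fold in GM and 8.86- to 11-fold in DM, and these ratios overlapped (exact permutation p = 0.20, adjusted 0.25).

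The adaptor pair changed in opposite directions. IRS1 (chromosome 2, 114988515 to 115174824, minus strand) measured 5.7, 5.74 and 5.95 FPKM in GM and 3.32, 3.92 and 3.48 in DM. Its groups were separate, with mean levels of 5.8 ± 0.134 and 3.57 ± 0.312 FPKM (SD, n = 3 each). IRS1 fell by 0.57 (SE 0.069, 95% interval -0.73 to -0.41) with a limma adjusted p of 0.00032, just short of the fold criterion, although its mean FPKM was 1.62-fold higher in GM. IRS2 (chromosome 12, 84650925 to 84655079, minus strand) measured 1.25, 1.29 and 1.3 FPKM in GM and 2.96, 3.87 and 3.01 in DM. Each DM library was above each GM library, and IRS2 rose by 0.90 (SE 0.093, 95% interval 0.69 to 1.12) with a limma adjusted p of 0.00013. The summed FPKM of both adaptors was 7.08 ± 0.16 in GM and 6.85 ± 0.82 in DM, with overlapping libraries, while the share of IRS2 in that sum went from 17.9 to 18.4% in GM to 46.4 to 49.7% in DM. Within libraries, the ratio of IRS2 to IRS1 was 0.219, 0.225 and 0.219 in GM and 0.893, 0.988 and 0.864 in DM, 4.14-fold higher in DM. This separation also gave the smallest possible exact permutation p of 0.10 (adjusted 0.17).

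At the kinases, PIK3CA, the p110-alpha catalytic subunit of PI3K (chromosome 1, 87879574 to 87964195), measured 15.7, 16.9 and 15.1 FPKM in GM and 22.2, 22.1 and 23.6 in DM. The DM libraries were all higher, by 0.48 on the log2 scale (SE 0.060, 95% interval 0.35 to 0.62, limma adjusted p = 0.00037). AKT1, the general AKT isoform (chromosome 21, 69230378 to 69247284), measured 87.2, 86 and 100 FPKM in GM and 78.2, 87.7 and 77.3 in DM. DM library 2 lay inside the GM range, and the difference of -0.17 did not pass (95% interval -0.34 to 0.01, limma adjusted p = 0.11). AKT2, the isoform best known for insulin-driven glucose uptake (chromosome 18, 49628437 to 49658477), measured 26.4, 24.2 and 24.4 FPKM in GM and 21.8, 22.2 and 21.6 in DM. The AKT2 groups did not overlap, with a difference of -0.18 (95% interval -0.31 to -0.06) and a limma adjusted p of 0.024. That call was lost on TPM (-0.06, adjusted p = 0.42), with median-of-ratios size factors (-0.12, adjusted p = 0.11), and without GM library 1 (0.092), DM library 1 (0.081) or DM library 3 (0.077). The ratio of AKT2 to AKT1 ran from 0.243 to 0.303 in GM and from 0.254 to 0.28 in DM (exact permutation p = 0.80, adjusted 0.80).

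**Figure D2:**
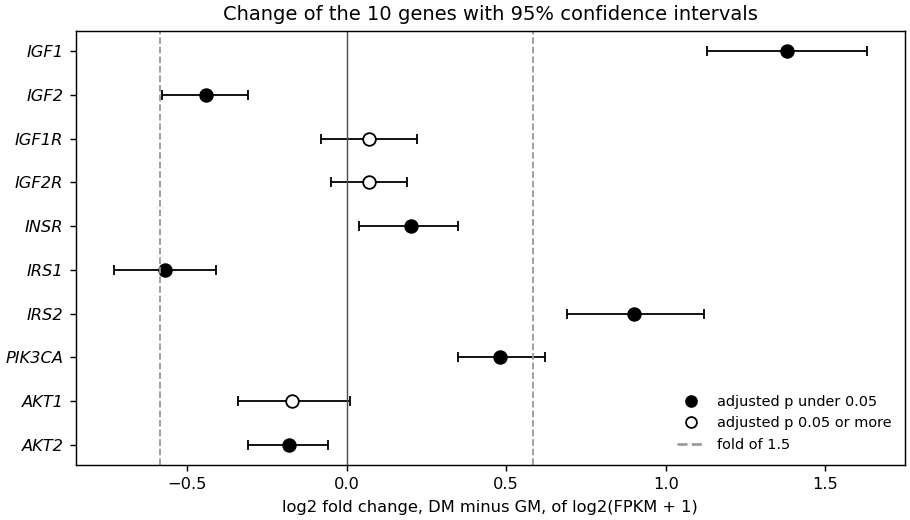
Difference in log2(FPKM + 1), DM minus GM, of the 10 genes with 95% confidence intervals from limma, 3 libraries per group. Filled points have an adjusted p under 0.05, and the intervals of IGF1 and IRS2 lie wholly beyond the dashed 1.5-fold line on the higher side.

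The order of the levels also changed. In GM it ran IGF2, AKT1, IGF2R, IGF1R, AKT2, PIK3CA, IRS1, INSR, IRS2 and IGF1, and each gene was above the next in all libraries. In DM, PIK3CA (22.1 to 23.6 FPKM) and AKT2 (21.6 to 22.2) overlapped, as did IRS1 with INSR and INSR with IRS2. IGF1 moved from above 0.3% of all tested genes in GM to above 20.9% in DM but remained the lowest of the 10 in every library. The filter at 0.5 FPKM removed genes low in both groups and kept IGF1 only through its DM level. Its place at the bottom in GM, and so the size of that move, was thus largely set by the filter. IGF2 stayed above 97.2% or more of all tested genes in both groups. The tested genes whose pattern over the 6 libraries was nearest to IGF1 were LDB3, a Z-disc protein gene (2.01, 2 and 1.83 FPKM in GM and 7.39, 6.01 and 7.45 in DM), and the prostaglandin F receptor gene PTGFR. Their root mean square differences from centred log2(FPKM + 1) of IGF1 were 0.056 and 0.062. The nearest to IRS2 were SYNPO, which encodes the actin-associated protein synaptopodin, and PEG3, an imprinted zinc finger gene, each with a difference of 0.046.

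The remaining genes of the pathway were read from a longer list. This list of 65 other genes of the pathway had 62 in the table and 57 tested, of which 3 were higher and 1 lower by both criteria, 7.02% in either direction beside the 11.9% of all tested genes. At an adjusted p under 0.05, 11 rose and 15 fell (45.6%, beside 42.8%), and the median difference was -0.05, as for all tested genes. FOXO1, the transcription factor that AKT keeps out of the nucleus, rose from 6.51, 7.29 and 6.52 FPKM in GM to 12.4, 14.2 and 13.1 in DM (0.87, SE 0.071, limma adjusted p = 3.5e-05). MDM2, the p53 ubiquitin ligase and an AKT substrate, rose from 21.1 to 32.7 FPKM (0.61, limma adjusted p = 0.00055), but missed the fold criterion without GM library 3, DM library 1 or DM library 3. The groups of both genes were separate, as were those of 54.1% of all tested genes.

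The inositol lipid phosphatases INPP4A and INPP4B, which act on a product of PI3K, went in opposite directions. INPP4A measured 15.9, 16.8 and 16.2 FPKM in GM and 9.55, 9.32 and 9.71 in DM, a fall of 0.72 (limma adjusted p = 1.8e-05). INPP4B measured 6.1, 6.79 and 6.44 FPKM in GM and 10.7, 10.8 and 10.7 in DM, a rise of 0.66 (limma adjusted p = 5.4e-05). Of the 8 lipid and protein phosphatases tested, 5 fell and 1 rose at an adjusted p under 0.05, where 26.7% of all tested genes fell and 16.1% rose. These shares of all tested genes are the reference for the other subgroups too. Of 7 other PI3K genes tested, subunits of different PI3K classes and the interacting protein gene PIK3IP1, 2 rose (PIK3R1 and PIK3R4) and 1 fell (PIK3R3). PIK3R1, the regulatory subunit that holds p110-alpha, rose from 8.55 to 12.5 FPKM (limma adjusted p = 0.0022) and met both criteria on TPM. PIK3R3 (2.36 to 1.35 FPKM) met them in the lower direction when 0.1 in place of 1 was added to FPKM. Of 15 genes of the mTORC1 arm, 3 rose and 3 fell, and MTOR itself gave 11 and 10.5 FPKM (adjusted p = 0.36). Of 6 other genes of AKT and its activating kinases, 1 rose and 3 fell. Of 11 adaptors and receptor regulators 1 rose and 2 fell. The 10 genes grouped as AKT substrates outside mTOR also include GYS1 and SLC2A1, which are not direct substrates of AKT. Of these 10, 3 rose and 1 (GYS1) fell.

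**Figure D3:**
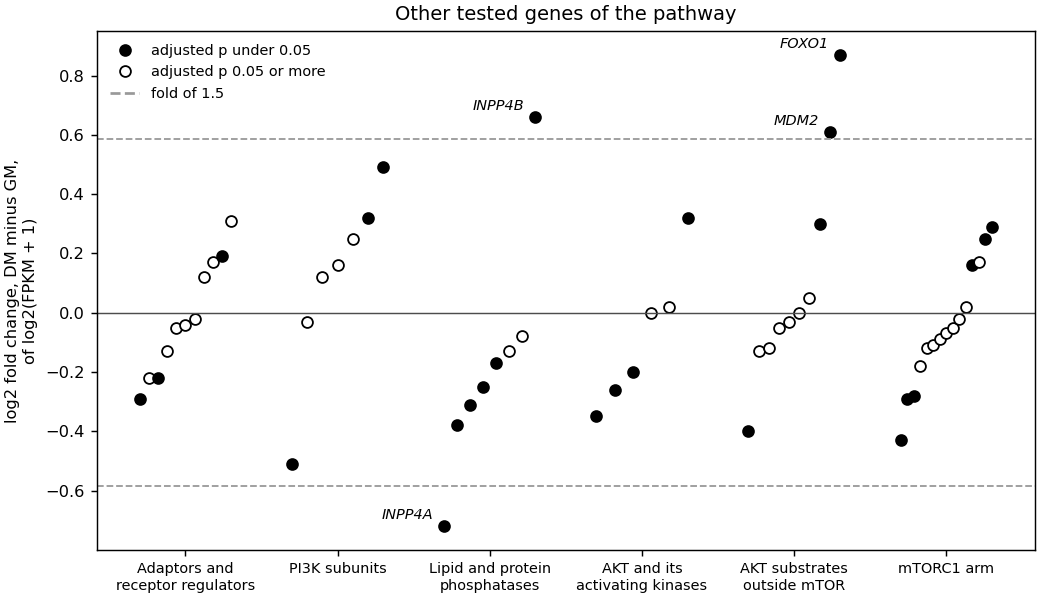
Difference in log2(FPKM + 1), DM minus GM, of the 57 other tested pathway genes, ordered within 6 functional subgroups, 1 point per gene from 3 libraries per group. Filled points have an adjusted p under 0.05, dashed lines mark a fold of 1.5, and the 4 named genes (FOXO1, MDM2, INPP4B and INPP4A) lie beyond them.

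In the m6A data, 9 of the 10 genes carried peaks in GM and the same 9 in DM. AKT1, second in level of the 10, had no peak in either list, as had 19% of all tested genes and 23.6% of the 1231 with a mean of at least 50 FPKM. Each list comes from pooled libraries, so a peak has 1 fold enrichment (IP over input) per group and no replicate error, and nothing in this comparison was tested. Of the 18 GM peaks, 9 were annotated to 3′ UTRs, 7 to exons and 2 to 5′ UTRs, and of the 17 DM peaks 8, 6 and 3. The shares in the same order were 42.6%, 41.3% and 16.1% of all GM peaks and 45.3%, 36.5% and 18.2% of all DM peaks. The counts of the members lie near these shares. A peak within 100 bases of the gene's 3′ end was present in 6 of the 9 genes in GM and 8 of 9 in DM, beside 50.6% and 61.0% of all genes with a peak in the table. IRS2 and PIK3CA were the genes that had such a peak in the DM list alone. For IRS2 this rests on the 100-base limit, since a GM peak of 2840 bases ended 209 bases from the gene's 3′ end and overlapped the DM peak. The 3′ end peak of PIK3CA had no overlapping GM peak.

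**Figure D4:**
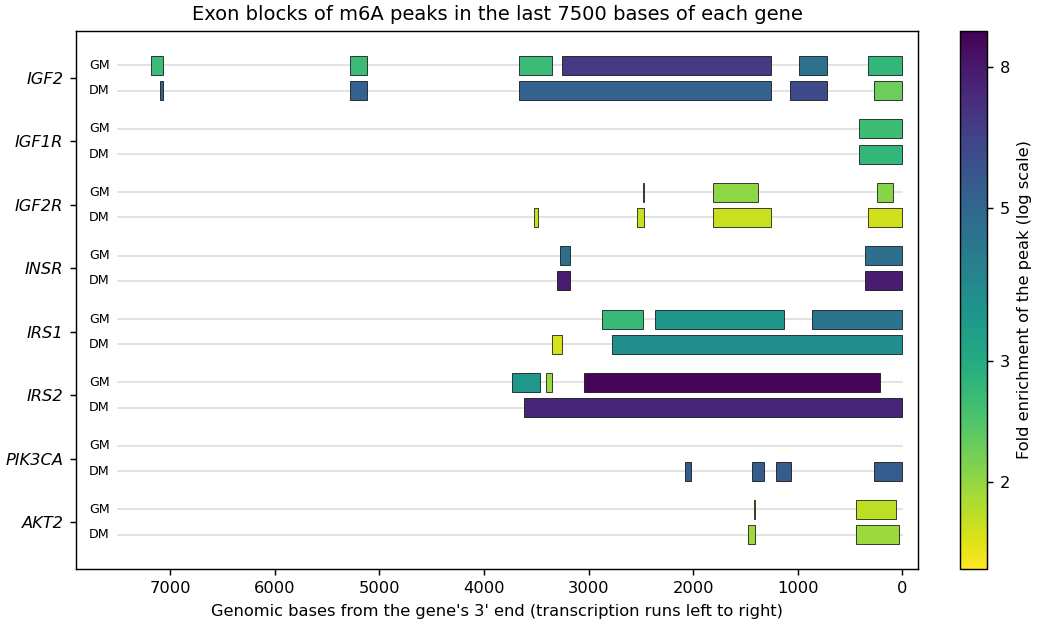
Exon blocks of m6A peaks in the last 7500 genomic bases of 8 genes, with GM above DM, position counted from the gene's 3′ end and colour giving fold enrichment on a log scale. The PIK3CA row holds blocks in DM alone, and the separate GM peaks of IRS1 and IRS2 are joined in DM, while IGF1 and AKT1 have no peak in this window.

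A total of 10 pairs of exactly 1 GM and 1 DM peak overlapped on the same strand. Fold enrichment differed over 1.5-fold in 3 of these 10 pairs, beside 25.0% of all 10239 such pairs, with 1 higher in DM (14.2% of all pairs) and 2 lower (10.8%). The largest shift was in IGF1, at the 3′ UTR-annotated peak of 330 exon bases in GM (chr5:66205963-66207762). Its fold enrichment was 22.9 in GM, with 99.2% of all GM peaks at or below it, and 4.79 in DM. The log2 ratio was -2.26, and 0.5% of all pairs had a lower ratio. The log10 false discovery rate of this IGF1 peak was -4.98 in GM and -7.95 in DM, so the higher enrichment went with the weaker call. IGF1 was under 0.5 FPKM in GM, and among 1125 pairs in genes at that level 50.6% differed over 1.5-fold, compared with 14.4% of 4175 pairs in genes at 10 FPKM or more. How far the low input level sets the IGF1 value was not tested.

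The other shifts were smaller. INSR, with its 3′-most peak annotated to exon 19 of 20 (chr7:16058828-16062101 in GM), went from 4.72 in GM to 7.81 in DM, a log2 ratio of 0.73, while its peak in exon 1 of 20 went from 2.67 to 3.3. PIK3CA had a peak annotated to the 5′ UTR (chr1:87908237-87964195 in GM, 716 exon bases in 3 blocks) that went from 6.03 to 3.92, a log2 ratio of -0.62. The remaining pairs stayed within 1.5-fold. IGF1R had the same 3 exon blocks of 569 bases in both lists at 2.63 and 2.76, and AKT2 gave 1.79 and 1.97. Both IGF2R pairs lay at low enrichment, 2.04 and 1.74 for the first and 2.08 and 1.71 for the peak nearest the 3′ end. For IGF2, the 3′ UTR peak at chr29:49421482-49421751 went from 4.64 to 6.03 and the one at the very end of the gene from 2.76 to 2.24.

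**Figure D5:**
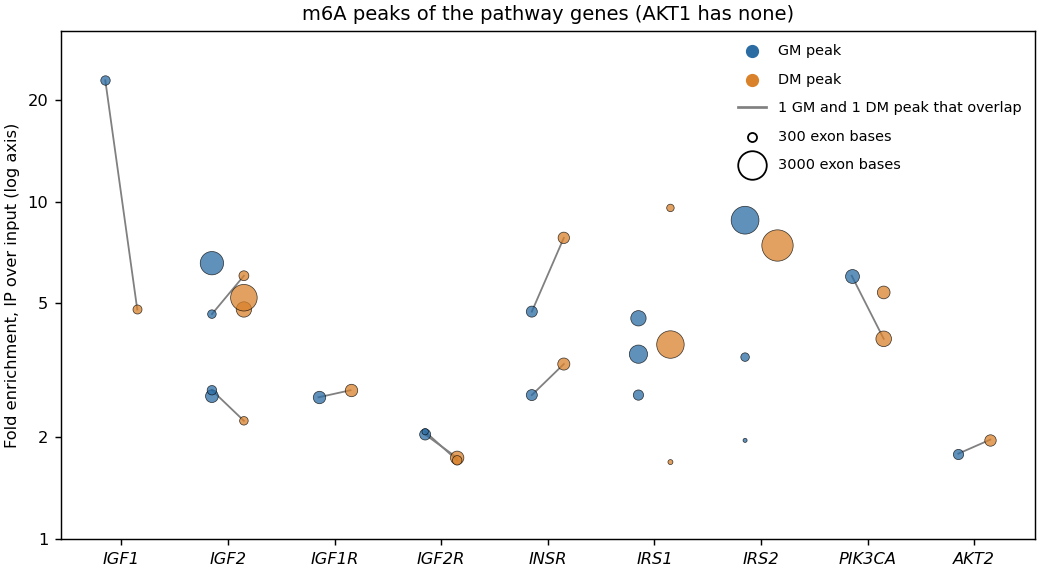
Fold enrichment of IP over input (log axis) of each m6A peak of the 9 genes that have any, GM in blue and DM in orange, with point area in proportion to exon bases and grey lines joining overlapping pairs of 1 GM and 1 DM peak. The IGF1 pair goes from 22.9 to 4.79, and IRS2 holds long peaks near 8.81 in GM and 7.45 in DM.

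IRS2 and IRS1 were covered by peaks over long stretches of exon in both groups, and here the DM list joined what the GM list split. IRS2, a gene with a single exon, had 3 GM peaks totalling 3171 bases and 1 DM peak of 3617 bases (chr12:84650925-84654541), sharing 3051 bases. Length-weighted fold enrichment was 8.22 in GM and 7.45 in DM, beside an mRNA level that rose. IRS1 had 3 GM peaks of 2483 bases and 1 DM peak of 2781 bases (chr2:114988515-114991295), at a length-weighted 3.74 and at 3.77, beside an mRNA level that fell. IGF2 likewise had 2 GM peaks that met 1 DM peak of 2599 bases, at 5.67 and 5.19. Across the whole list, 14.1% of DM peaks overlapped more than 1 GM peak.

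Of the 17 DM peaks, 4 had no GM peak that overlapped on the same strand, beside 28.7% of all DM peaks. The one with the lowest false discovery rate lay at the 3′ end of PIK3CA (chr1:87879574-87881652), 597 bases in 4 exon blocks that begin at exon 18 of 21 in the annotation and reach the end of the gene. Its fold enrichment was 5.38 and its log10 false discovery rate -159. In the DM list, 83 of 3061 peaks (2.71%) with a false discovery rate under 1e-100 had no overlapping GM peak. PIK3CA input was 1.42-fold higher in DM, and the GM list gives no value for this region. The others were a 5′ UTR-annotated IGF2 peak (4.79, false discovery rate 0.076), a 91-base IRS1 peak (1.69, 0.027) and a peak assigned to IRS1 at chr2:115169036-115170314 (9.58, 4.6e-04). That last region is annotated to exon 6 of 7 of COL4A4, a same-strand gene that overlaps the span of IRS1 and had 0 to 0.231 FPKM. RHBDD1 runs on the opposite strand across the same span at 4.42 to 5.12 FPKM, and the libraries were strand-specific. A GM peak assigned to RHBDD1 (chr2:114991444-115174734, 2.22, false discovery rate 2.1e-07) spans both of these IRS1 regions. Overlap of its exon blocks with them was not tested. Each of the 18 GM peaks overlapped a DM peak, while 14.7% of all GM peaks had no overlap.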

How the data were processed

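Inputs and m6A IPs of 3 GM and 3 DM cultures were sequenced. The authors aligned reads with HISAT2 to ARS-UCD1.2 and made the deposited FPKM table with StringTie for 6 inputs, autosomes only. The authors called the deposited peaks with exomePeak on pooled libraries, with ChIPseeker annotation. Deposited fold enrichment is a linear ratio of IP over input, the deposited score column is an unadjusted p-value, and the log10 columns, held as log10 values the authors deposited, give that p-value and its false discovery rate. No counts or replicate peak values were used.

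From these, limma 3.58.1 (R 4.3.3, variance trend) was run on log2(FPKM + 1) for the 12302 genes that averaged 0.5 FPKM or higher across inputs. Peaks were paired by overlap of at least 1 exon base on the same strand (Python 3.11.15, pandas 2.3.3, numpy 2.4.6, scipy 1.17.1, matplotlib 3.10.9), with changes over 1.5-fold counted. Scripts were tested on simulated data. The study used edgeR on counts, which were not used here. The members and lists were chosen with earlier results of these data known. Named genes were the 10 members, pathway genes meeting both criteria, PIK3R1, MTOR and FOXO1 whatever their values, and the 2 nearest patterns of each member that met both criteria. Same-numbered GM and DM libraries did not deviate together, so no pairing was used. Alternatives covered pseudocount, filter, scaling, replicate block, variance trend, thresholds, each library left out, peak strength, overlap and centring. Of the pathway list, IRS4, GRB14 and FOXO4 were not in the table. No genome sequence was used. Some genes that the rule names are not reported here.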

Additional observations from a re-analysis of the deposited data

How the results depend on the processing

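At a fold over 2 in place of 1.5, 507 genes, 1 of the 10 members (IGF1) and 0 of the pathway list were called with limma at an unadjusted p under 0.05, and at a ratio over 2, 1 of the 10 peak pairs (IGF1) had changed. IGF1, IGF2, IRS1, IRS2 and PIK3CA kept their direction and an adjusted p under 0.05 under all 13 alternative fits. IRS1 also met the fold criterion with a pseudocount of 0.1 and without DM replicate 2, and PIK3CA on TPM. The fit on TPM moved the median of all tested genes from -0.05 to 0.06 and the share of called genes that were higher from 41.3% to 55.1%, and IGF1R and IGF2R then passed (0.20 each, adjusted p 0.031 and 0.019). MTOR (0.05) changed sign there without passing. INSR also lost its call without the filter (adjusted p = 0.076). The ratio of AKT2 to AKT1 turned positive without GM replicate 1 (0.05) or DM replicate 2 (0.02), with a range of -0.11 to 0.05 on the log2 scale. Same-numbered libraries correlated at -0.21 to -0.08 in their deviations, none best with its own number. With the replicate block, 1473 genes, 2 members and 4 pathway genes were called, while INSR (adjusted p = 0.10) and AKT2 (0.072) lost theirs. Leaving out each library gave 1480 to 1521 genes, 2 to 3 members and 3 to 4 pathway genes. Without read counts, the depth behind IGF1 in GM is unknown, and peaks have no replicate error.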

Other observations

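The deposited KEGG terms place 119 table genes in the insulin signaling pathway, of which 104 were tested. By both criteria 4 were higher and 5 lower in DM (8.65% in either direction, beside 11.9% of all tested genes), and at a limma adjusted p under 0.05, 22 rose (21.2%) and 31 fell (29.8%), beside 16.1% and 26.7% of all tested genes. The genes below are called genes that are in neither list above and were chosen after their values were seen. PPP1R3A, a glycogen-targeting subunit of protein phosphatase 1 in muscle, measured 0.8, 1.08 and 0.75 FPKM in GM and 9.39, 9.43 and 9.45 in DM, a difference of 2.48 (limma adjusted p = 3.4e-07). RAPGEF1, an exchange factor for Rap GTPases, measured 4.04, 4.64 and 4.29 FPKM in GM and 6.11, 6.28 and 9.32 in DM (0.61, limma adjusted p = 0.0081). The RAPGEF1 difference missed the fold criterion without DM library 3 (0.44) or GM library 1 (0.57). Those that fell were PHKG1, a catalytic subunit of phosphorylase kinase (4.87 to 2.42 FPKM), PCK2, the mitochondrial phosphoenolpyruvate carboxykinase (49.7 to 29), PRKAR1B (1.06 to 0.294), CALML4 (15.2 to 9.33) and SOCS2, a feedback inhibitor of growth hormone signalling (2.3 to 1.14). PRKAR1B was under 0.5 FPKM in every DM library (0.281, 0.38 and 0.221), so it passed the filter only through its GM level. CALML4 missed the fold criterion on TPM (-0.56) and without GM library 3 or DM library 3 (-0.58 each), and SOCS2 without DM library 1 (-0.55). The groups of each gene named here did not overlap, as for 54.1% of all tested genes. This adds no support, since the genes were picked as called in the same libraries.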
